A study of Mus musculus with 13 samples.

Results

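Isg15, Ifit1, Ifit2, Ifit3, Stat2, Irf9, Oasl2, Mx1 and Usp18 are interferon-stimulated genes, and all 9 had a row, found by gene name, among the 53465 genes of the deposited TPM table (a read share corrected for gene length). They were followed over 13 bulk RNA-seq libraries of mouse tissue, 3 of WT ovary and 10 of MP tumor. The WT ovaries were normal ovaries of C57BL/6 mice. The labels give all 13 samples 1 shared protocol, with mice of 8 to 12 weeks. The MP tumors were EPO-GEMM ovarian tumors, raised in C57BL/6 females of 8 to 12 weeks by injecting plasmids into the left ovary and electroporating it, with a Cas9 vector carrying a guide against Trp53 and a Sleeping Beauty transposon carrying MYC. Electroporation does not choose a cell type, the tumors were oligoclonal, and RNA was taken from whole tumor tissue at end point, so the RNA includes that of host cells. The hosts were immune-competent.

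Interferons are cytokines that cells release when they sense viral or misplaced nucleic acid. Type I and type III interferons act through receptor-bound Janus kinases that phosphorylate STAT2, which joins IRF9 in ISGF3, a transcription factor complex that binds the interferon-stimulated response element in the promoters of many genes. The products of these genes block virus replication, modify proteins with the ubiquitin-like ISG15, or feed back on the pathway, and in tumors their RNA is commonly read as a trace of interferon exposure of tumor, stromal or immune cells.

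The response element is shown first, because it is the sequence by which several of these genes are recognised as targets of one factor. RefSeq promoter windows (GRCm38.p6, 250 bases before to 50 bases after the start site) were found for 7 of the 9 members. The motif, GAAA followed by any 2 bases and then GAAA, read on both strands with overlapping matches counted, was present in 4 of these 7 genes, against 3.99% of the 27025 genes with a window. Stretches of the promoters of Isg15 (chr4:156200855-156200916, minus strand), Ifit1 (chr19:34640765-34640833, plus strand), Ifit3 (chr19:34583353-34583436, plus strand) and Stat2 (chr10:128270256-128270305, plus strand) are written 5′ to 3′ on the strand of the gene. Rsad2 (chr12:26456543-26456592, minus strand) and Gbp2 (chr3:142620584-142620633, plus strand) are added as the 2 genes with a match among the 7 with a window of the 10 genes whose RNA was most like that of the members over the tumors. The other 5, Irf7, Fhl4, Btg1, Il17re and Mst1r, held none. Capitals mark the bases matched by the motif, which reads TTTC, 2 bases and TTTC where the match lies on the opposite strand.
Isg15: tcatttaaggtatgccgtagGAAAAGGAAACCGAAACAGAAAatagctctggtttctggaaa
Ifit1: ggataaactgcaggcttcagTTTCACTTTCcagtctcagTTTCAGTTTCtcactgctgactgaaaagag
Ifit3: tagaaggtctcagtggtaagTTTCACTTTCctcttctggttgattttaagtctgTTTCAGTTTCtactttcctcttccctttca
Stat2: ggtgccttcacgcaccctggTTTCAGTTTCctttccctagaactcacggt
Rsad2: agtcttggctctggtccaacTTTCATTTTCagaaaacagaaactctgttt
Gbp2: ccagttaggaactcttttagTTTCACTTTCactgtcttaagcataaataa

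Isg15 held 3 overlapping matches, Ifit1 and Ifit3 held 2 each, and Stat2 held 1. The letters were not found in the windows of Ifit2, Irf9 or Oasl2, which says only that this spelling is not in these 300 bases. Of the other pathway lists, the motif was in 3 of 3 other IFIT genes, 4 of 5 OAS genes, 9 of 11 interferon gamma-induced GTPase and chemokine genes, 11 of 20 interferon ligand genes and 16 of 37 other type I interferon-stimulated genes. It was in 3 of 9 sensor and adaptor genes, 1 of 10 kinase and IRF genes, 1 of 6 negative regulators, 0 of 4 ISG15 conjugation enzymes and 0 of 8 receptor and Janus kinase genes. A match is a description of the sequence and not a measured binding site.

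**Figure D1:**
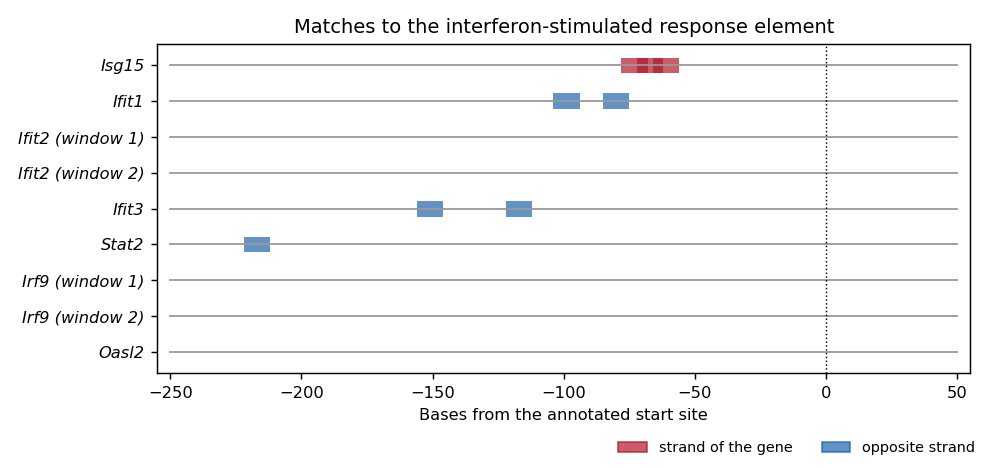
Matches to the response element in the promoter windows of 7 members, plotted by distance in bases from the annotated start site; each box is 1 match of 10 bases, coloured by strand, and Ifit2 and Irf9 have 2 windows each. All matches lie upstream of the start site, closest in Isg15 (from 78 to 56 bases before it) and farthest in Stat2 (from 222 to 212 bases before it).

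Depth differed between the groups, since reads worked back from TPM and gene length came to 31445004 to 64013840 in WT ovaries and 3892690 to 19906507 in MP tumors, in the shallowest of which a single read over 1 kb equalled 0.790 TPM. Project numbers in the library names divide the libraries into 3 sets: set 1 held all 3 WT ovaries and MP tumors 1 to 3, set 2 held MP tumors 4 to 6 and set 3 held MP tumors 7 to 10. Trp53 RNA was below every WT ovary (80.7 to 85.4 TPM) in 9 tumors and stood at 187 TPM in the library labelled MP tumor 10, so the RNA of the targeted gene goes against that label. In MP tumor 2 the 10 most abundant genes took 55.1% of all TPM. Markers of granulosa, theca and luteal cells, which define the normal ovary, summed to 28249 to 34120 TPM in WT ovaries and to 11.9 to 2269 TPM in MP tumors.

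In TPM, the 9 genes had lower medians in MP tumors than in WT ovaries, and a minority of tumors came near or above the ovaries. Of the 8 members tested below, 2 passed as lower, where 14.3% of all genes did. Summed over the 9 genes, WT ovaries had 131 to 189 TPM, and MP tumors had 11.5 TPM at the lowest (MP tumor 6), 42.8 TPM at the median and 160 TPM at the highest (MP tumor 9). MP tumors 4 and 5 followed with 124 and 114 TPM, and the next was the library labelled MP tumor 10 with 57.3 TPM. The order was shared among genes, since MP tumor 9 was among the 3 highest tumors for 9 of 9 members and MP tumor 4 for 8, while MP tumor 6 was among the 3 lowest for 8.

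Tested across the 17277 genes that reached 1 TPM in 3 or more libraries, by limma on log2(TPM + 1) with Benjamini-Hochberg adjustment at 0.05, 2 of the 8 members that passed this filter were lower in MP tumors, Stat2 and Ifit1, and 0 were higher. Of all genes tested, 14.3% were lower and 2.51% were higher. The log2 fold change (given below ± its standard error, SE) of the 8 members had a median of -1.68, beside -0.58 over all genes, and was below 0 in 8 of 8, as in 69.9% of all genes, with Ifit2 turning to 0.14 under quantile normalization. The test rests on 3 ovaries: without WT ovary 1, 2 or 3 in turn, limma called 0 members lower, where 6.7%, 6.92% and 6.86% of all genes were lower. At an unadjusted P under 0.05, 3, 5 and 2 members were lower in these fits, beside 18.7%, 19.6% and 19.8% of all genes, against 6 members and 27.4% of all genes when all 13 libraries were used. By limma-voom on the reads, 5 members were lower and 0 higher, where 23.7% of all genes were lower and 11% higher. Leaving out MP tumor 8 gave 1 member and 11.9% of all genes lower, and leaving out MP tumor 9 gave 4 members and 18.9%. Without MP tumor 2 and the library labelled MP tumor 10 together, 2 members and 16.8% of all genes were lower.

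Scaling bore on the counts of lower members and of all genes in the comparison of all libraries. The median of all genes moved from -0.58 to -0.02 under median-of-ratios scaling, to 0.08 under quantile normalization and to 0.03 when each library's trend with gene length was removed, and the split of all calls moved from 2463 lower and 433 higher to 1887 lower and 1292 higher, 2091 lower and 1904 higher, and 1779 lower and 1779 higher. Under each of these, 1 member was lower, and it was Stat2. In bulk tissue, fewer cells that express a gene and less RNA per cell cannot be told apart.

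**Figure D2:**
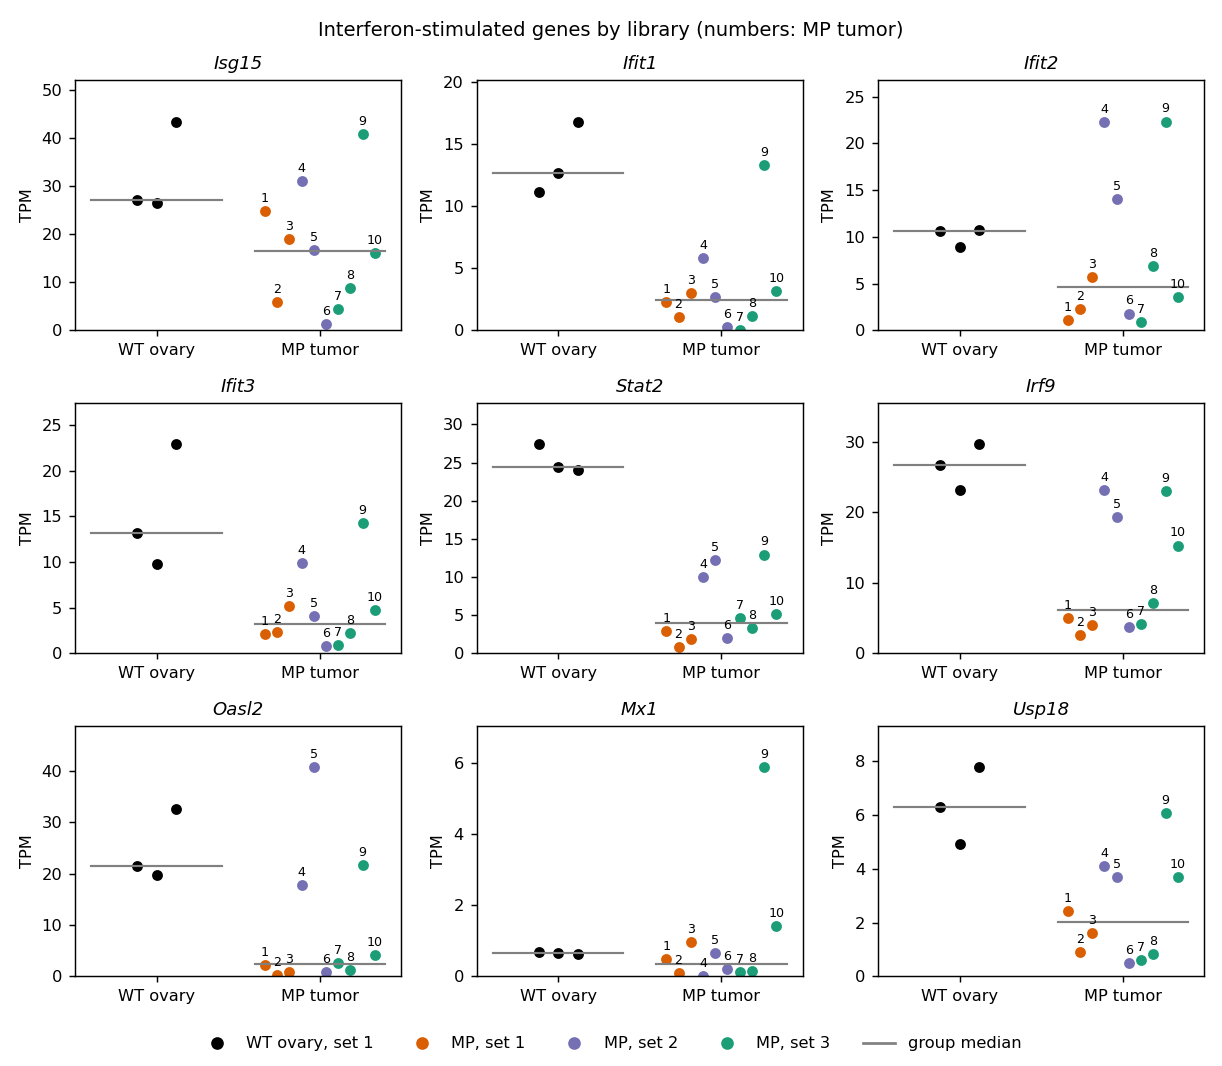
TPM of each of the 9 members in each library, with 3 WT ovaries in black, 10 MP tumors coloured by library set and numbered by tumor, and grey lines at the group medians. Stat2 and Irf9 lay below every WT ovary in all 10 tumors on this scale, as did 16.4% of all genes (3.02% lay above in all 10), Ifit2 was above every WT ovary in 3 tumors, and MP tumor 9 was the highest tumor for 7 of the 9 genes. After median-of-ratios scaling it was the highest for 2, and MP tumor 4 for 5.

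Of the 2 members that encode parts of ISGF3, Stat2 (ENSMUSG00000040033, chromosome 10 from 128270559 to 128292849, plus strand, GRCm38) encodes the STAT protein particular to type I and type III interferon signalling. It was at 27.4, 24.4 and 24.1 TPM in WT ovaries 1 to 3, and in MP tumors at 0.790 TPM at the lowest (MP tumor 2), 3.97 at the median and 12.95 at the highest (MP tumor 9). All 10 tumors lay below every ovary, also after median-of-ratios scaling, and 16.4% of all genes had no overlap in this direction. The log2 fold change was -2.30 (SE 0.59, limma adjusted P = 0.0158). It was below 0 in 28 of 28 alternative settings and past the threshold in 25, the exceptions being the fits without 1 WT ovary (adjusted P = 0.0842, 0.0706 and 0.0728). Relative to the median of all genes in each tumor, chromosome 10 stood at -0.45 to -0.51 (log2) in MP tumors 5, 6 and 8. It was near 0 in the other 7. Stat2 stood at -0.91 to -3.87 relative to the WT mean over the 10, without removal of the shift of all genes. That shift ran from 0 in MP tumor 9 to -1.55 in MP tumor 2, so the 2 measures are not on 1 scale. The part of chromosome 10 in the level of Stat2 was not tested.

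Irf9 (ENSMUSG00000002325, chromosome 14 from 55603571 to 55610030, plus strand) encodes the DNA-binding partner in ISGF3. It was at 26.7, 23.1 and 29.6 TPM in the ovaries, and its MP tumor values were 2.54 TPM at the lowest (MP tumor 2), 6.10 at the median and 23.1 at the highest (MP tumor 4). On the TPM scale the ranges did not overlap, but the gap was 23.0786 against 23.0964 TPM. After median-of-ratios scaling MP tumor 4 was above every ovary. In TPM, MP tumors 4, 9 and 5 stood close to the ovaries while 6 of the other 7 were below 8 TPM. The difference did not pass the test (log2 fold change -1.58 ± 0.63 SE, limma adjusted P = 0.0944). It passed with library set as a covariate (-2.52 ± 0.64 SE, limma adjusted P = 0.00443), where 49.4% of all genes were lower. That fold change is the one within library set 1, the only set with ovaries. The exons of Irf9 share 123 bases with Rnf31 on the same strand, so some reads there are uncertain.

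The IFIT proteins bind foreign RNA and stall its translation, and Ifit1, Ifit2 and Ifit3 lie on the plus strand of chromosome 19. Ifit1 (ENSMUSG00000034459, from 34640871 to 34650009), which recognises RNA ends without the host cap methylation, was at 11.2, 12.7 and 16.8 TPM in WT ovaries, and in MP tumors had 0 reads at the lowest (MP tumor 7, where 3 reads would be 0.466 TPM), a median of 2.49 TPM and a highest value of 13.3 TPM in MP tumor 9. Only MP tumor 9 reached the range of the ovaries, and the next tumor had 5.82 TPM. Ifit1 fell by 2.16 on the log2 scale (SE 0.65, limma adjusted P = 0.0334), and this did not pass under median-of-ratios scaling or without any 1 WT ovary (adjusted P = 0.105, 0.114 and 0.153). Reads of Ifit1 and Ifit1bl2 can be hard to separate, since 5.11% of the 76-base stretches of Ifit1 also occur in Ifit1bl2.

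Ifit3 (ENSMUSG00000074896, from 34583531 to 34588731), a partner that stabilises IFIT1, was at 13.2, 9.83 and 22.9 TPM in the ovaries and at 0.814, 3.22 and 14.2 TPM at the lowest, median and highest of the MP tumors. The groups overlapped in MP tumors 4 and 9, and the difference did not pass (log2 fold change -1.77 ± 0.61 SE, limma adjusted P = 0.0578). It passed with library set as a covariate (-1.95 ± 0.75 SE, limma adjusted P = 0.0409), where the fold change is that of set 1 and 49.4% of all genes were lower. With Ifit3b it shares 40.7% of its 76-base stretches, so the split of reads between these genes is uncertain. Ifit2 (ENSMUSG00000045932, from 34550694 to 34576419), an RNA-binding protein of the same family, had 10.6, 8.96 and 10.8 TPM in the ovaries and 0.946, 4.63 and 22.3 TPM at the lowest, median and highest of the tumors. MP tumors 9, 4 and 5 stood above every ovary, at 22.3, 22.3 and 14.1 TPM, and the other 7 stood below. After median-of-ratios scaling 4 tumors were above and 4 below. The mean difference did not pass (log2 fold change -0.86 ± 0.76 SE, limma adjusted P = 0.434).

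Oasl2 (ENSMUSG00000029561, chromosome 5 from 114896936 to 114912234, plus strand), a mouse relative of the oligoadenylate synthetases, a family of antiviral enzymes, spanned the widest range of the members that had reads in every tumor. The ovaries had 21.6, 19.7 and 32.6 TPM, and the tumors had 0.282 TPM at the lowest (MP tumor 2), 2.39 at the median and 40.7 at the highest (MP tumor 5), a range of 144-fold against 1.65-fold among ovaries. The lowest value rests on 10 reads in MP tumor 2, where the 10 most abundant genes took 55.1% of all TPM. After median-of-ratios scaling the tumors ran from 0.704 to 29.8 and the ovaries from 13.4 to 22.9. In TPM, 8 tumors were below every ovary, MP tumor 9 lay among the ovaries with 21.6 TPM, and MP tumor 5 lay above them. With this spread the log2 fold change of -2.33 had a standard error of 0.95 and did not pass (limma adjusted P = 0.102). With library set as a covariate it passed (-3.69 ± 1.00 SE, limma adjusted P = 0.00679), where the fold change is that of set 1 and 49.4% of all genes were lower.

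Mx1 (ENSMUSG00000000386, chromosome 16 from 97447035 to 97462907, minus strand) encodes an antiviral GTPase that most laboratory strains, C57BL/6 among them, carry as a disrupted allele, so its RNA can be read but no intact protein is known from this strain. It was the lowest member in every ovary, at 0.683, 0.655 and 0.633 TPM from 22 to 45 reads. MP tumors had 0 reads at the lowest (MP tumor 4, where 3 reads would be 0.471 TPM), 0.345 TPM at the median and 5.88 TPM at the highest, from 57 reads in MP tumor 9. MP tumors 3 and 9 and the library labelled MP tumor 10 stood above the ovaries and 6 stood below, and after median-of-ratios scaling 5 stood above and 5 below. As it reached 1 TPM in 2 libraries, Mx1 did not pass the filter, and without a filter, among 32961 genes, it did not pass the test (log2 fold change -0.02 ± 0.47 SE, limma adjusted P = 0.981).

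In the ISG15 system, Isg15 (ENSMUSG00000035692, chromosome 4 from 156199424 to 156200818, minus strand) encodes the modifier that is attached to newly made proteins. It had the highest median TPM of the 9 in both groups, with 27.2, 26.6 and 43.5 TPM in the ovaries and 1.41 (MP tumor 6), 16.4 and 40.8 TPM (MP tumor 9) at the lowest, median and highest of the tumors. MP tumors 4 and 9 lay within the range of the ovaries and 8 lay below it, and the difference did not pass (log2 fold change -1.28 ± 0.72 SE, limma adjusted P = 0.222). After median-of-ratios scaling only 5 tumors were below the ovaries and 3 were above them.

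Usp18 (ENSMUSG00000030107, chromosome 6 from 121245906 to 121270917, plus strand) encodes the protease that removes ISG15 and also damps the type I receptor. It was at 6.30, 4.94 and 7.78 TPM in the ovaries, and at 0.509 TPM (MP tumor 6), 2.02 TPM and 6.07 TPM (MP tumor 9) at the lowest, median and highest of the tumors. MP tumor 9 alone lay within the range of the ovaries. The difference did not pass (log2 fold change -1.27 ± 0.50 SE, limma adjusted P = 0.0924), and 124 exonic bases of Usp18 are shared with an antisense transcript, Gm44148, whose reads could not be separated.

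On the TPM scale, which corrects for length, the order of the medians in WT ovaries was Isg15, Irf9, Stat2, Oasl2, Ifit3, Ifit1, Ifit2, Usp18 and Mx1. The ranges of neighbours in this order overlapped over the 3 ovaries down to Ifit1, whereas Ifit1 and Ifit2, Ifit2 and Usp18, and Usp18 and Mx1 did not overlap. In MP tumors the order was Isg15, Irf9, Ifit2, Stat2, Ifit3, Ifit1, Oasl2, Usp18 and Mx1, and every pair of neighbours overlapped. Usp18 was above Mx1 in 10 of 10 tumors, and Isg15 was above Irf9 in 8 of 10. The order was not kept library by library for all neighbours, since Ifit1 was above Oasl2 in 3 of 10 tumors and Irf9 above Stat2 in 1 of 3 ovaries.

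The WT ovaries share library set 1 with MP tumors 1 to 3, so the comparison was repeated within that set. There 7 of the 8 members tested were lower in the tumors and 0 were higher, where 57.3% of all genes were lower and 6.44% were higher, with a median over all genes of -1.19. Oasl2 (log2 fold change -3.69 ± 0.38 SE, limma adjusted P = 0.000122) and Stat2 (-3.27 ± 0.32 SE, adjusted P = 0.000105) differed most. Irf9 (-2.52, adjusted P = 0.000207), Ifit1 (-2.24, adjusted P = 0.000579), Ifit3 (-1.95, adjusted P = 0.00365), Ifit2 (-1.64, adjusted P = 0.00999) and Usp18 (-1.49, adjusted P = 0.0029) followed in the same limma fit, and Isg15 did not pass (-1.09 ± 0.52 SE, adjusted P = 0.103). Median-of-ratios scaling within the set left 4 members lower among 5435 lower and 4709 higher genes, and turned Isg15 to 0.49. Set 1 also held MP tumor 2. With library set as a covariate over all 13 libraries, 5 members were lower, Stat2, Oasl2, Irf9, Ifit1 and Ifit3, where 49.4% of all genes were lower and 5.17% higher. As only set 1 holds WT ovaries, the fold changes of this fit are those within set 1. The tumors of the other sets bear only on its estimate of the spread.

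Tumors of set 1 were then set against those of sets 2 and 3, all labelled with 1 genotype. Trp53 RNA set the library labelled MP tumor 10, in set 3, apart from the other tumors. By limma, 0 of 8 members passed in either direction, where 29.4% of all genes were lower and 1.22% higher in set 1. At an unadjusted P under 0.05, 3 members were lower, as were 40.3% of all genes. They were Oasl2 (log2 fold change -2.01 ± 0.92 SE, adjusted P = 0.115), Stat2 (-1.40 ± 0.57 SE, adjusted P = 0.0809) and Irf9 (-1.36 ± 0.60 SE, adjusted P = 0.102), and limma-voom on reads called 0. Without MP tumor 6, 3 members and 28.8% of all genes were lower. The log2 fold changes of the other members were -1.16 for Ifit2, -0.32 for Usp18, -0.25 for Ifit3, -0.11 for Ifit1 and 0.30 for Isg15, with limma adjusted P from 0.282 to 0.926. Under median-of-ratios scaling 2425 genes were higher and 1656 lower, and Ifit1, Ifit3 and Usp18 turned to 0.85, 0.83 and 0.58. The 3 tumors of set 1 had 0.282 to 2.12 TPM of Oasl2, 2.54 to 5.04 TPM of Irf9 and 0.790 to 2.89 TPM of Stat2. In set 2 Oasl2 ran from 0.780 to 40.7 TPM, Irf9 from 3.69 to 23.1 TPM and Stat2 from 2.04 to 12.3 TPM.

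**Figure D3:**
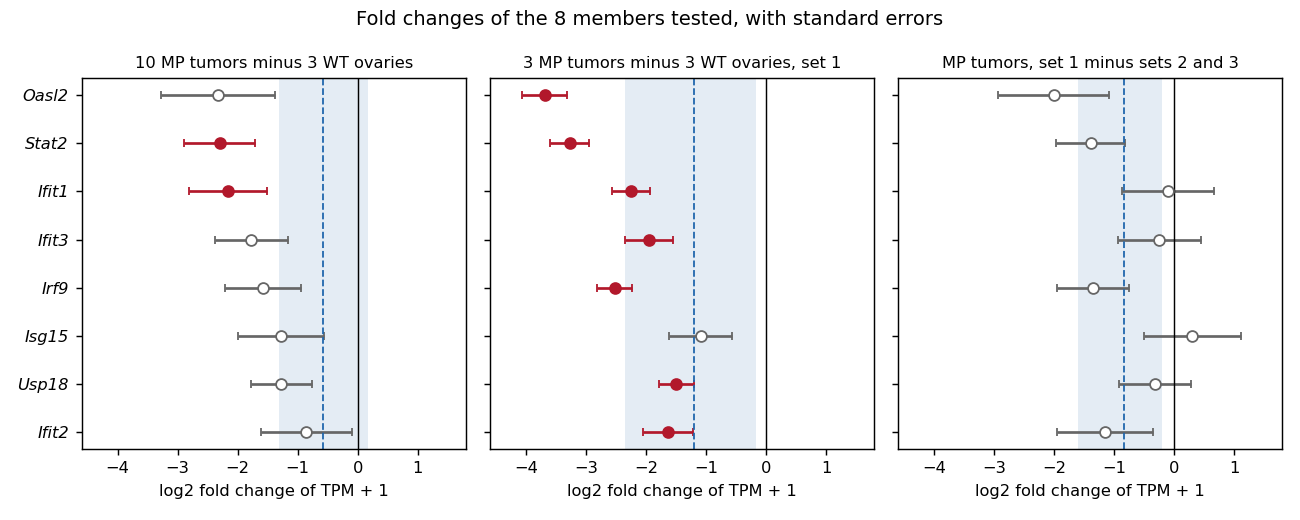
Log2 fold changes of TPM + 1 with standard errors for the 8 members tested, in 3 comparisons; filled red points passed limma at an adjusted P under 0.05, the dashed line is the median of all 17277 genes and the shaded band its middle 50%. In the comparison of all libraries 8 of 8 points lie left of 0, with Ifit2 turning to 0.14 under quantile normalization, and 2 are filled; in library set 1 the band itself lies left of 0 and 7 are filled; between sets of tumors 0 are filled.

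Over the 10 MP tumors the members moved together. Each of the 36 pairs had a Pearson correlation above 0 on the log2(TPM + 1) scale, from 0.422 to 0.967 with a median of 0.751. Against the mean of the other 8, r was highest for Usp18 (0.943), Ifit1 (0.913), Ifit3 (0.905) and Irf9 (0.902), and lowest for Mx1 (0.610). These are descriptions over 10 libraries that share depth and composition: the median r of all tested genes with the members was 0.357. Without MP tumors 4 and 9, the 2 farthest from the median, r ran from 0.621 (Stat2) to 0.913 (Usp18), and with library set means removed from 0.699 (Mx1) to 0.960 (Irf9). Under median-of-ratios scaling r ran from 0.456 (Mx1), 0.646 (Oasl2) and 0.713 (Stat2) to 0.911 (Ifit1).

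The genes outside the 9 with the most similar pattern over the tumors, by Pearson r with the members' mean z-score, were Irf7 (0.984), Rsad2 (0.980), Rtp4 (0.967), Fhl4 (0.956), Ccl5 (0.945), Btg1 (0.939), Gbp2 (0.936), Il17re (0.935), Mst1r (0.933) and 2610203C20Rik (0.931). Irf7 encodes the factor that amplifies interferon production, Rsad2 encodes viperin, Ccl5 encodes a T cell chemokine and Gbp2 a guanylate-binding protein. MP tumor 9 had the highest tumor value for 9 of these 10. Of the 100 most similar genes, 22 were in the interferon pathway lists described next, which hold 0.675% of the genes tested, and of all 116 list genes that passed the filter, 35.3% had r above 0.8 against 2.86% of all genes. Both shares include genes that reached the filter only with the help of the ovaries, 1444 of the 17277 genes tested. Their r rests on low tumor values. The top 100 under median-of-ratios scaling shared 51 genes with the 100 above.

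Irf7 was at 10.7 to 17.6 TPM in the ovaries and at 0.470, 3.22 and 17.4 TPM at the lowest, median and highest of the tumors (log2 fold change -1.64 ± 0.65 SE, limma adjusted P = 0.0941). Rsad2 was at 6.45 to 10.2 TPM and at 0.737, 2.91 and 16.1 TPM (log2 fold change -0.88, limma adjusted P = 0.302, turning to 0.10 under quantile normalization). Rtp4, a receptor transporter induced by interferon, fell from 25.3 to 37.4 TPM in the ovaries to 1.50, 4.11 and 13.6 TPM (log2 fold change -2.53 ± 0.57 SE, limma adjusted P = 0.00677). Il17re, an interleukin receptor chain, and Mst1r, a receptor kinase, are outside the pathway lists: their tumor medians were 0.0589 and 0.372 TPM and their highest values 28.6 and 25.2 TPM, both in MP tumor 9.

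**Figure D4:**
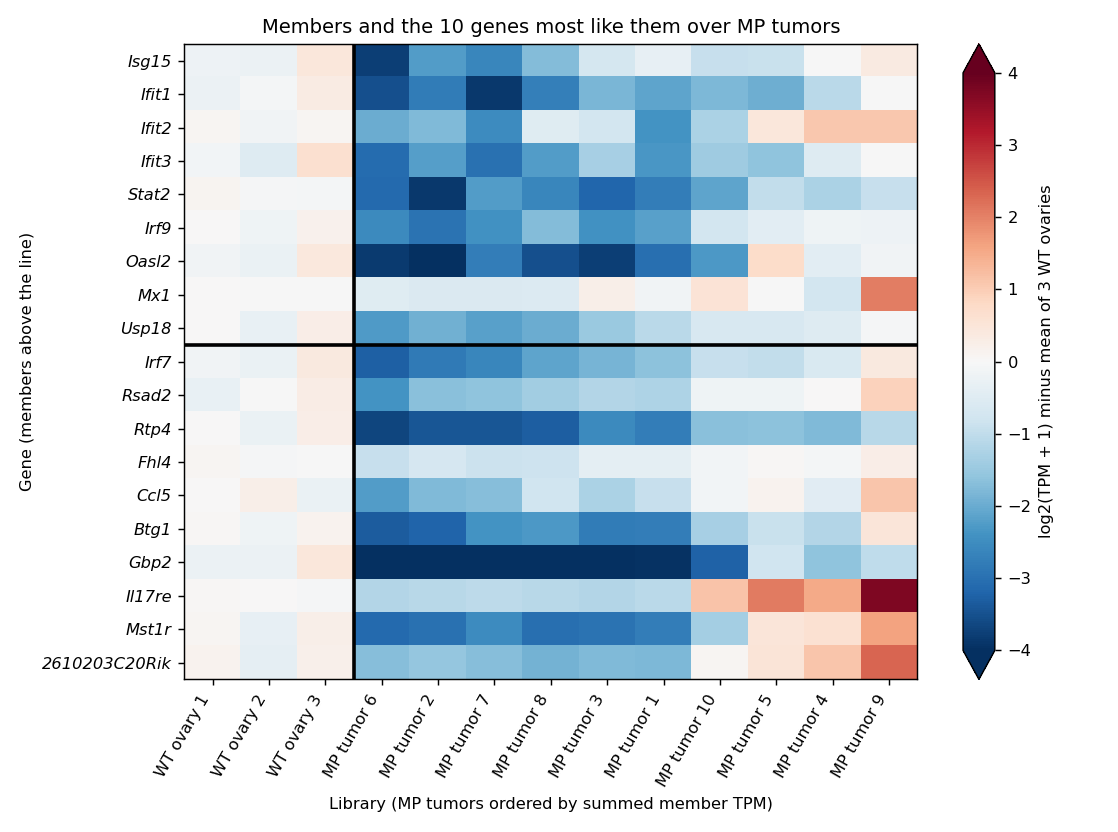
Log2(TPM + 1) minus the mean of the 3 WT ovaries for the 9 members and the 10 genes most like them, in each library, with MP tumors ordered by the summed TPM of the members; the colour scale ends at -4 and 4, past which Gbp2 and Oasl2 reach in some tumors. Summed TPM of the members runs from 11.5 in MP tumor 6 to 160 in MP tumor 9, and blue gives way to pale or red in MP tumors 5, 4 and 9.

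The signalling steps around these genes were read from pathway lists. Genes that reached the filter only with the help of the ovaries, with fewer than 3 tumors at 1 TPM (9 of the 125 tested), are left out of the counts of calls and the median fold changes of these lists. The shares and median of all genes set beside them keep such genes, 1444 of 17277 (8.36%). Of 20 interferon ligand genes, 13 had no read in any library, and in MP tumors none reached 1 TPM. Ifnb1, the first type I interferon made in most cells, was at 0 in the 3 ovaries and in 6 tumors and at most 0.913 TPM (MP tumor 3). Ifna4 was above 0 in 1 tumor (0.610 TPM), and Ifnk, known mainly from keratinocytes, was at most 0.283 TPM in tumors and 0.135 TPM in ovaries. Only Ifnl3, a type III interferon, passed the filter: it had 1.41, 1.68 and 2.43 TPM from 9 to 21 reads in the ovaries and 0 reads in all 10 tumors. In a single tumor 3 reads would be 0.588 to 4.07 TPM, and 0.129 TPM over the tumors together. In the shallowest tumors 0 reads therefore cannot be told from the level of the ovaries. Ifnl3 is 1 of the genes left out, and no test of it is given. Ifnl2 and Ifnl3 are near-identical copies, so which of them the reads belong to is uncertain.

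Of 9 genes for interferon receptors and Janus kinases, 3 were lower in MP tumors and 0 higher, where 14.3% of all genes were lower. By limma-voom 6 were lower, where 23.7% of all genes were, and by limma without any 1 WT ovary 0 were. Jak1, the kinase shared by all interferon receptors, fell from 228 to 341 TPM in the ovaries to a tumor median of 26.3 TPM (log2 fold change -3.11 ± 0.77 SE, limma adjusted P = 0.0123). The interferon gamma receptor gene Ifngr1 fell by 1.47 (SE 0.37, adjusted P = 0.0128), and Jak2, a kinase of the interferon gamma receptor, fell by 2.30 (SE 0.72, adjusted P = 0.04001) in the same fit, with MP tumor 5 highest for Jak2 at 43.4 TPM. Among the abundant genes of this list that did not pass, Ifnar1 of the type I receptor had 71.6 to 91.2 TPM in ovaries and 5.79 to 75.8 TPM in tumors. Ifngr2 had 102 to 108 and 9.74 to 120.5 TPM, and Il10rb, shared with type III receptors, had 72.3 to 142 and 3.45 to 117 TPM.

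Of 13 nucleic acid sensors and adaptors, 3 were lower and 0 higher, against 14.3% of all genes lower. By limma-voom 5 were lower, against 23.7% of all genes. Ddx58, which encodes RIG-I, fell by 2.65 on the log2 scale (SE 0.69, limma adjusted P = 0.0165), from 16.3 to 20.5 TPM to a tumor median of 1.54 TPM. Ticam1, the TLR3 adaptor, fell by 2.07 (adjusted P = 0.0461), and Ifih1, which encodes MDA5, fell by 1.77 (adjusted P = 0.0491), in the same limma fit. Mavs had 54.3 to 57.2 TPM in ovaries and 3.50 to 149 TPM in tumors. Myd88 had 35.2 to 42.3 and 6.57 to 59.4 TPM, and Tmem173, which encodes STING, had 20.3 to 27.7 and 1.64 to 52.2 TPM. These overlapped the ovaries.

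Of 10 kinases and IRF factors that induce interferon, 0 passed limma in either direction. Of them 4 were lower at an unadjusted P under 0.05, where 27.4% of all genes were, and 4 by limma-voom on reads, where 23.7% were. Irf3 was at 52.3 to 59.7 TPM in ovaries and 10.4 to 81.3 TPM in tumors, Tbk1 at 38.9 to 41.9 and 11.8 to 52.8 TPM, and Irf1 at 39.7 to 51.2 and 2.99 to 41.4 TPM. Of the 4 ISG15 conjugation enzymes, 1 was lower by limma, where 14.3% of all genes were, and 2 by limma-voom. Herc6, the mouse ISG15 ligase, fell by 1.18 (SE 0.36, limma adjusted P = 0.0372), while Trim25 (10.7 to 169 TPM in tumors), Ube2l6 (5.16 to 74.0 TPM) and Uba7 (0.134 to 10.99 TPM) did not pass.

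Of the 3 other IFIT genes, Ifit3b fell by 1.74 (SE 0.40, limma adjusted P = 0.00827) from a low level, 3.33 to 8.29 TPM in the ovaries. Ifit1bl2 was at 2.32 to 3.06 TPM in the ovaries and at most 0.340 TPM in the tumors. Ifit1bl1 was at 1.36 to 1.67 TPM and at 0 to 2.52 TPM. Both reached the filter only with the ovaries, and no test of them is given. Of 5 OAS genes counted, 1 was lower, a share near the 14.3% of all genes. It was Oas1c, which fell by 2.98 (SE 0.65, limma adjusted P = 0.00602), from 13.3 to 17.4 TPM to a tumor median of 0.462 TPM. Oas1a, Oasl1 and Oas1b did not pass, with their highest tumor values at 9.23, 23.4 and 6.33 TPM.

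The longest list, 47 other type I interferon-stimulated genes, had 16 lower and 0 higher of 45 counted, with a median log2 fold change of -1.63, beside 14.3% lower, 2.51% higher and a median of -0.58 over all genes. By limma-voom 25 were lower and 1 higher, beside 23.7% and 11% of all genes. Phf11d (log2 fold change -1.95 ± 0.41 SE, limma adjusted P = 0.00463), Isg20, an RNA exonuclease (-2.25, adjusted P = 0.00654), and Samd9l (-2.91, adjusted P = 0.00673) had the largest moderated statistics. The 3 most abundant others did not pass, Bst2, which tethers virus particles, at 720 to 834 TPM in ovaries and 169 to 1550 TPM in tumors, Ifitm3 at 380 to 689 and 166 to 1144 TPM, and Ifitm2 at 254 to 399 and 229 to 703 TPM.

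The list of 20 interferon gamma-induced GTPases and chemokines had 10 lower and 0 higher of 15 counted, with a median of -2.27, against the same 14.3% and -0.58 over all genes. By limma-voom 12 were lower, beside 23.7% of all genes. With the 3 genes left out, Gbp5 among them, it would be 11 of 18 and -2.13. Nos2, the inducible nitric oxide synthase, fell by 4.05 (SE 0.49, limma adjusted P = 3.54e-05), from 28.9 to 51.5 TPM to a tumor median of 1.71 TPM. The GTPase genes Tgtp2 (-2.05, adjusted P = 0.00277), Gbp2 (-3.56, adjusted P = 0.0214) and Irgm2 (-2.75, adjusted P = 0.0267) passed in the same fit, and Igtp, at 26.6 to 32.0 TPM in ovaries and 0.527 to 25.3 TPM in tumors, did not. Of 8 negative regulators, a list that also holds Usp18, 1 was lower by limma, a share near the 14.3% of all genes, and 3 by limma-voom, beside 23.7%. Cish, an inhibitor of cytokine receptors, fell by 1.68 (SE 0.55, limma adjusted P = 0.0483), and the abundant Ptpn11, Ptpn2 and Pias1 did not pass. Without any 1 WT ovary, the lower counts were 3 to 6 of 45 type I genes and 2 to 3 of 15 interferon gamma-induced genes, where 6.7% to 6.92% of all genes were lower. They were 0 for the receptors, sensors, conjugation enzymes and negative regulators, 1 for the OAS genes in each fit, and 1 for the IFIT gene Ifit3b except without WT ovary 3. Without MP tumor 2 and the library labelled MP tumor 10 they were 16 of 45 type I and 9 of 15 interferon gamma-induced genes, beside 16.8% of all genes. Under median-of-ratios scaling, quantile normalization and length-trend removal, 11, 9 and 8 of 45 type I genes were lower. The counts were 8, 8 and 7 for interferon gamma-induced genes, 2, 3 and 3 for receptors and 2 in each for sensors. Of all genes, 10.9%, 12.1% and 10.3% were lower. Conjugation enzymes and negative regulators had 0 in each, so neither Herc6 nor Cish passed.

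**Figure D5:**
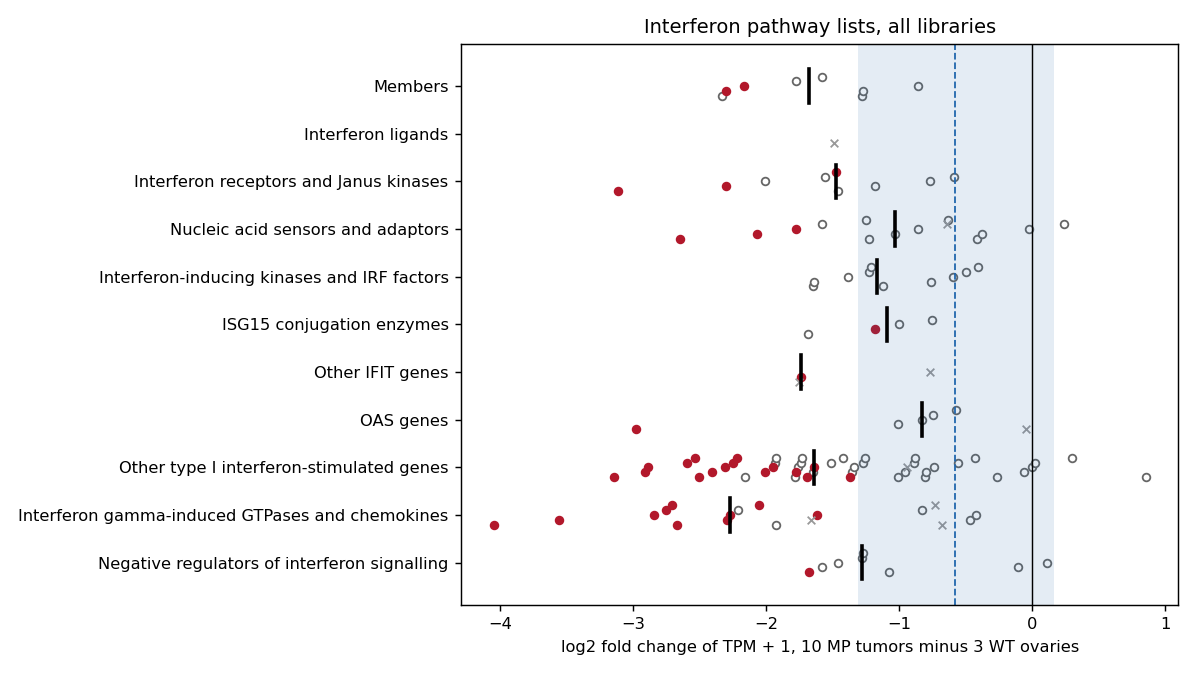
Log2 fold changes of TPM + 1 between 10 MP tumors and 3 WT ovaries for the tested genes of each interferon pathway list; each point is a gene, filled red where limma gave an adjusted P under 0.05, grey crosses are genes that reached the filter only with the ovaries and were not counted, black bars are medians of the counted genes, the dashed line is the median of all genes and the band their middle 50%. In no list was a gene higher past the threshold, and the list medians run from -0.83 (OAS genes) to -2.27 (interferon gamma-induced GTPases and chemokines); under quantile normalization they run from -0.034 to -1.38.

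Markers of cells that can carry interferon-stimulated RNA were summed in each library. The 5 leukocyte markers summed to 116 to 246 TPM in WT ovaries and to 38.5 to 167 TPM in MP tumors, with 120 TPM in MP tumor 9, 42.2 TPM in MP tumor 4 and 166.5 TPM in MP tumor 5. MP tumor 4, the second highest for the members, was the third lowest tumor for these markers. The 10 macrophage markers summed to 1625 to 3982 and 769 to 4027 TPM, and the 7 T cell markers to 10.9 to 13.7 and 0.282 to 10.3 TPM, below every ovary in all 10 tumors, with 0 to 5 of the 7 at 0 in a tumor. The 4 B cell markers summed to 5.32 to 6.23 TPM in ovaries and 0.359 to 5.18 TPM in tumors. The 5 NK cell markers summed to 2.80 to 8.88 and 0.169 to 4.99 TPM, below every ovary in 9 tumors. The 5 neutrophil markers summed to 6.44 to 11.7 TPM in ovaries and 5.92 to 66.2 TPM in tumors, above every ovary in 8 tumors, with Ly6g at 0 in all 10. Over the 10 tumors, as a description, the median r of tested markers with the members' mean was 0.561 for leukocytes (0.086 to 0.680), 0.447 for macrophages (-0.189 to 0.697), 0.504 for T cells (0.416 to 0.547) and 0.731 for B cells (2 genes, 0.557 and 0.905). It was -0.12 for plasmacytoid dendritic cells and -0.294 for neutrophils, beside 0.357 over all genes. Under median-of-ratios scaling these medians were 0.438, 0.136, 0.243, 0.619, -0.078 and -0.104. Of the 4 T cell genes in these values, only 2 had 3 or more tumors at 1 TPM. The 5 endothelial markers summed to 238 to 253 TPM in ovaries and 4.14 to 180 TPM in tumors, the 5 fibroblast markers to 1104 to 1781 and 82.9 to 3722 TPM, and the 6 epithelial markers to 237 to 267 and 5.67 to 1152 TPM. MP tumors 5 and 9 were the 2 highest for endothelial and fibroblast markers, and MP tumors 4 and 9 for epithelial markers. Smooth muscle markers were below every ovary in all 10 tumors (42.7 to 1232 against 1327 to 1555 TPM), and erythroid markers above every ovary in all 10 (451 to 6177 against 226 to 432 TPM). The median r of the endothelial, fibroblast and epithelial markers was 0.576, 0.618 and 0.589, and 0.204, 0.372 and 0.551 under median-of-ratios scaling. Of the 6 epithelial genes in it, 5 had 3 or more tumors at 1 TPM. The part of these cells in the levels of the members was not tested.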

How the data were processed

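Polyadenylated RNA of 3 WT ovaries and 10 MP tumors was sequenced by the authors as 76-base single reads. The submitters' processing notes name FastQC 0.11.5, Trimmomatic 0.36, STAR 2.5.3a and featureCounts 1.6.3 with a mouse build (mm10, GRCm38), while the extraction text names a human build, HTSeq and RPKM. The deposited table holds TPM of mouse genes, each library summing to 1000000, and 96.0% of these genes match GENCODE M21 in both start and end, so the mouse build was used. TPM is a share, so a gene's value moves when other genes take more of the reads. Its columns were matched to samples by the library names in the labels, and 0 columns were left unused. Reads were worked back from TPM times gene length, where all values came out whole within 0.01.

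Genes reaching 1 TPM in 3 or more libraries entered the test on log2(TPM + 1) with limma 3.58.1 (trend, robust) in R 4.3.3, with Benjamini-Hochberg adjustment at 0.05 over 17277 genes. The pseudocount of 1 shrinks fold changes of low genes. The labels number the replicates without naming animals, so P values measure the spread between these samples. Pairs of libraries of 1 group differed beyond sampling noise and none was merged. On simulated data for the comparison of all libraries (17277 genes), 48 of 100 genes changed by 2 and 88 of 100 changed by 4 on the log2 scale were recovered with the right sign, and 4 unchanged genes were called.

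The 9 members and the pathway and marker lists were chosen with earlier results of these data known. Of the pathway lists, 2 genes are not reported here. Named genes are the members, of each list the genes past the threshold (the 3 with the largest moderated statistic where there were more) and the 3 most abundant others, and the 10 genes most like the members. Fold changes are given for named genes that passed and were counted and for the 3 most like the members, and levels for most of the rest. The RefSeq promoter windows are those of GRCm38.p6. Intervals for counting error were not computed. Python 3.11.15, pandas 2.3.3 and matplotlib 3.10.9 were used for tables and figures.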

Additional observations from a re-analysis of the deposited data

Results flagged for a closer look

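In 3 of the 9 members, 1 MP tumor stood apart from the other 9 by a gap of more than 0.466 of the tumors' range. Values from a normal distribution pass this limit in about 1 of 20 groups of this size. Here TPM was skewed, with an SD over the tumors of 119% (Ifit1), 146% (Oasl2) and 178% (Mx1) of the mean. That rate therefore need not hold. Ifit1 was at 13.3 TPM in MP tumor 9 and at 5.82 TPM in the next tumor. Oasl2 was at 40.7 TPM in MP tumor 5 and at 21.6 TPM in the next. Mx1 was at 5.88 TPM in MP tumor 9 and at 1.41 TPM in the next, which was the library labelled MP tumor 10.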

How the results depend on the processing

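Between all MP tumors and WT ovaries, 2 members were lower by limma. The count was 1 with pseudocount 0.1, with median-of-ratios scaling (with or without a filter), with quantile normalization and with the trend with gene length removed, 5 with limma-voom and with library set as a covariate, 7 within library set 1, and 0 to 4 when single libraries were left out. Of all genes, 433 higher became 1292 with median-of-ratios scaling (1062 without a filter), 1904 with quantile normalization, 1779 with the length trend removed, 1892 with limma-voom, 894 with the set covariate, 1112 within set 1 and 675 without MP tumor 2 and the library labelled MP tumor 10, and 94 to 635 when single libraries were left out. The 2463 lower became 4092 with limma-voom, 8534 with the covariate, 9902 within set 1 and 1158 to 3264 without single libraries. Within set 1, 7 members lower became 4 with median-of-ratios scaling and 3 with quantile normalization. There, 1112 genes higher became 4709, 5068 (quantile), 4700 (length trend) and 2470 (limma-voom), and 663 to 2171 without single libraries, and 9902 lower became 5435, 5010 and 4882. Between tumor sets, 210 genes higher and 5071 lower became 136 and 3305 without a filter, 2425 and 1656 with median-of-ratios scaling, 1596 and 1347 with quantile normalization, and 1467 and 1470 with the length trend removed; limma-voom gave 570 higher. Without single tumors these ran from 43 to 317 and from 2560 to 5601, with 0 to 3 members lower. The causes were not tested.

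Directions changed in few results. Without a filter, Mx1 moved from -0.02 to 0.19 with median-of-ratios scaling. With quantile normalization Ifit2 became 0.14 and Rsad2 0.10 over all libraries, and Isg15 became 0.44, Ifit2 0.25 and Usp18 0.25 within set 1, where median-of-ratios scaling turned Isg15 to 0.49. Between tumor sets, where 0 members passed, Ifit1, Ifit3 and Usp18 became 0.85, 0.83 and 0.58 with median-of-ratios scaling, 1.14, 1.07 and 0.85 with quantile normalization (Ifit2 0.10), 0.66, 0.25 and 0.48 with the length trend removed and 0.85, 0.28 and 0.17 with limma-voom, and Ifit1 became 0.31 with pseudocount 0.1. Without single tumors Ifit1 ran from -0.44 to 0.24 (0.16 without MP tumor 2, 0.17 without MP tumor 4, 0.24 without MP tumor 9), Ifit3 from -0.59 to 0.058 (above 0 without MP tumors 4 and 9, 0.026 for the latter), and Isg15 from -0.25 (without MP tumor 6) to 0.87, with -0.078 without MP tumor 1.

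The labels number WT ovaries and MP tumors of set 1 alike without naming animals, and same-numbered libraries did not deviate together (r -0.096, -0.021 and 0.0012). With the replicate block, 7 members, 9838 genes lower and 1095 higher passed, close to the fit of set 1 without it. The exclusion of MP tumor 2 with the library labelled MP tumor 10, and the scaling without a filter, were chosen after seeing the data. Depth limits several members: Mx1 and Ifit1 had 0 reads in 1 tumor each, and at the lowest tumor Isg15 had 3 reads and Ifit3 and Usp18 had 4.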
